A study of Homo sapiens with 6 samples.

Results

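The genes of microRNA processing and silencing were followed in SNU-398, an established line of human hepatocellular carcinoma cells, with and without an shRNA against SALL4. The set comprised the 10 genes DROSHA, DGCR8, XPO5, DICER1, TARBP2, AGO1, AGO2, AGO3, AGO4 and TNRC6A, taken by name from the annotation of the probe sets, of 18404 genes in all. Each of the 10 was measured by 1 probe set. The study compared 3 arrays from cells given a scrambled control shRNA with 3 from cells given an shRNA directed at SALL4. SALL4 is a transcription factor with zinc fingers that is known from embryonic stem cells and fetal liver. The labels call the 3 arrays of each group biological replicates. The titles read SALL4 shRNA for the 3 knockdown arrays and do not say how many hairpins were used. The labels name no untreated culture, no rescue and no time after treatment. All 6 arrays thus come from cells carrying an shRNA. Other effects of the SALL4 shRNA and those of lower SALL4 cannot be told apart.

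MicroRNAs are made in steps. In the nucleus the Microprocessor, formed by the nuclease DROSHA and its RNA-binding partner DGCR8, cuts a hairpin out of the primary transcript. Exportin-5, encoded by XPO5, carries the hairpin to the cytoplasm, where DICER1 with its partner TARBP2 trims it to a duplex. An Argonaute protein keeps 1 strand of the duplex and binds target messenger RNAs with it, and the GW182 protein TNRC6A links Argonaute to the enzymes that shorten and decap those messenger RNAs. AGO2 is the Argonaute known for cutting well-paired targets. An shRNA uses part of the same route, from export by exportin-5 to loading into Argonaute.

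AGO4, AGO1 and AGO3 are neighbours, in that order, among the protein-coding genes of chromosome 1. As given below, AGO4 was higher on the knockdown arrays without passing, while the groups overlapped for AGO1 and AGO3. The difference between AGO4 and these neighbours was not tested. Sequences before a start of each are shown, together with the sequence upstream of the outermost DICER1 start, which holds the short AT-rich motif looked for. Each is the 250 bases before a transcription start in RefSeq on GRCh38.p14; for AGO4, AGO1 and AGO3 this start is not the outermost of the gene, so the window lies inside the annotated gene. The sequences are written 5′ to 3′ along the gene's strand, with matches to ATATT and to the GC box core GGGCGG, on either strand, in capitals. Such sequences were used for 9 of the 10 genes, and none was used for AGO2.
AGO4, chr1:35807766-35808015, plus strand: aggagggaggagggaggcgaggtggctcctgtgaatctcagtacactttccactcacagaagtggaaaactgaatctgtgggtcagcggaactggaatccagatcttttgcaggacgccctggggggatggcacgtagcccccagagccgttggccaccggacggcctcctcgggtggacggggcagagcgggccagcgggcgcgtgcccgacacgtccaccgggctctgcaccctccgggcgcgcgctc
AGO1, chr1:35882959-35883208, plus strand: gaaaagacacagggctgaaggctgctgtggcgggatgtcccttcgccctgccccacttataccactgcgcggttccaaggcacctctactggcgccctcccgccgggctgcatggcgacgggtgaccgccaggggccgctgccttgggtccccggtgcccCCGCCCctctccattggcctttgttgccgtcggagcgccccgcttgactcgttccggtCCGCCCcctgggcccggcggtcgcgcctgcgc
AGO3, chr1:35930855-35931104, plus strand: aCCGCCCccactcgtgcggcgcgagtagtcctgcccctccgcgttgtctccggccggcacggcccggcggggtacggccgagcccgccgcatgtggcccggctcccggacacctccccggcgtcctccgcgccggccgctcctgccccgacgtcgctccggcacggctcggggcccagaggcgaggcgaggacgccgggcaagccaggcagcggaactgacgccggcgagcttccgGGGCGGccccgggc
DICER1, chr14:95158011-95158260, minus strand: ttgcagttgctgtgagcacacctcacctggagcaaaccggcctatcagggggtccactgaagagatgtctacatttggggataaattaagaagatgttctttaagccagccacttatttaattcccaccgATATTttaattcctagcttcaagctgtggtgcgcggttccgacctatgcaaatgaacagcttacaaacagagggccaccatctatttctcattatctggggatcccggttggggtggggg
The AGO4 sequence held no GGGCGG and no ATATT. The AGO1 and AGO3 sequences held 2 matches to GGGCGG each and no ATATT. The DICER1 sequence held 1 match to ATATT. Its window lies inside the annotated antisense gene DICER1-AS1, which overlaps the start of DICER1. Over the 15 starts listed for the 9 genes, 10 sequences held GGGCGG and 4 held ATATT, all of these 4 at DICER1, where 2 of the windows overlap and share the match shown. Among 35116 such sequences in RefSeq, 42.6% held GGGCGG and 21.4% held ATATT. The 6-base AATATT, which contains ATATT, was found in 1 of the 15 and in 6.41% of all. AT-rich sequence of this kind is known to be bound by a zinc finger cluster of SALL4. GC content was 66.4% in the AGO4 window, 71.6% in that of AGO1, 80% in that of AGO3 and 48% in that of DICER1, against a median of 58% over all. Of the other DICER1 windows, that with a GC content of 74% held no ATATT, and those at 34%, 38% and 52% held it. A match describes the letters only.

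The values were array intensities on a linear scale with a floor of 10, and the lowest value of any of the 10 genes, 85.04 for TARBP2, lay above that floor. Changes are differences of mean log2 intensity, SALL4 shRNA minus scrambled, with standard errors (SE), 95% intervals and adjusted p values from limma, a linear model fitted to 13711 genes that shares the spread between genes. The threshold was an adjusted p under 0.05. SALL4 itself was at 294 ± 36.8 (SD, n = 3) in the scrambled arrays and at 119 ± 1.67 (SD, n = 3) in the knockdown arrays, a log2 change of -1.30 ± 0.18 (SE; limma adjusted p = 0.0112). Array medians lay between 47.85 and 51.69, and knockdown replicate 2 had the lowest. On the second principal component, 19.8% of the variance, scrambled replicate 3 and knockdown replicate 2 stood apart from the other 4 arrays. Without these 2 arrays together the SALL4 change was -1.20 and its adjusted p 0.0724, and the adjusted p was 0.0946 in a fit of all genes with no filter and 0.0535 with all probe sets as features. In such bulk RNA, fewer cells with a transcript and less of it per cell cannot be told apart. Markers of other cell types were measured beside the members. The 4 blood markers measured and the 4 endothelial markers stayed below the filter on dim genes, and the leukocyte marker PTPRC was at the floor on all 6 arrays. Of the liver markers, ALB was at 11.2 ± 1.39 in scrambled arrays and AFP at 15 ± 0.66, near the floor, while GPC3 was at 155 ± 18.1 (SD, n = 3 each). KRT18 (99.8), APOA1 (71.8), KRT8 (36.7) and TTR (32.2) had scrambled means between those of AFP and GPC3, and HNF4A was not measured. Summed liver markers ranged from 372 to 446 in scrambled and from 364 to 466 in knockdown arrays. Summed fibroblast markers ranged from 1228 to 1386 in scrambled and from 942 to 1277 in knockdown arrays. LUM held about as much in both (670 ± 24.1 and 649 ± 174), DCN (195 ± 17.2 and 83.4 ± 21.1) and COL3A1 (348 ± 75.4 and 235 ± 6.99) had lower knockdown means, and COL1A1 and PDGFRB higher ones (SD, n = 3 each). Summed cholangiocyte markers, mostly EPCAM, ranged from 998 to 1245 in scrambled and from 923 to 1138 in knockdown arrays. The part of these markers in the results below was not tested.

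None of the 10 genes passed the threshold in limma, where 1.6% of all genes in the fit passed. The gene nearest to it was AGO2, lower in the knockdown by 0.84 on the log2 scale. At an unadjusted p under 0.05 there were 4 of the 10 (AGO2, DICER1 and TNRC6A lower, AGO4 higher), 40%, against 16.9% of all genes in the fit (8.92% of all lower and 8% of all higher). The groups did not overlap in 5 of the 10 genes, 50%, against 22.4% of all. Of these 5, AGO2, DICER1, DGCR8 and TNRC6A were lower, against 11% of all genes, and AGO4 was higher, against 11.4%. With the SALL4 shRNA 7 of the 10 had a negative and 3 a positive change, and the median was -0.21, against 0.02 over all genes. Because the 10 were chosen with results of these arrays known, these shares describe the list and were not tested.

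**Figure D1:**
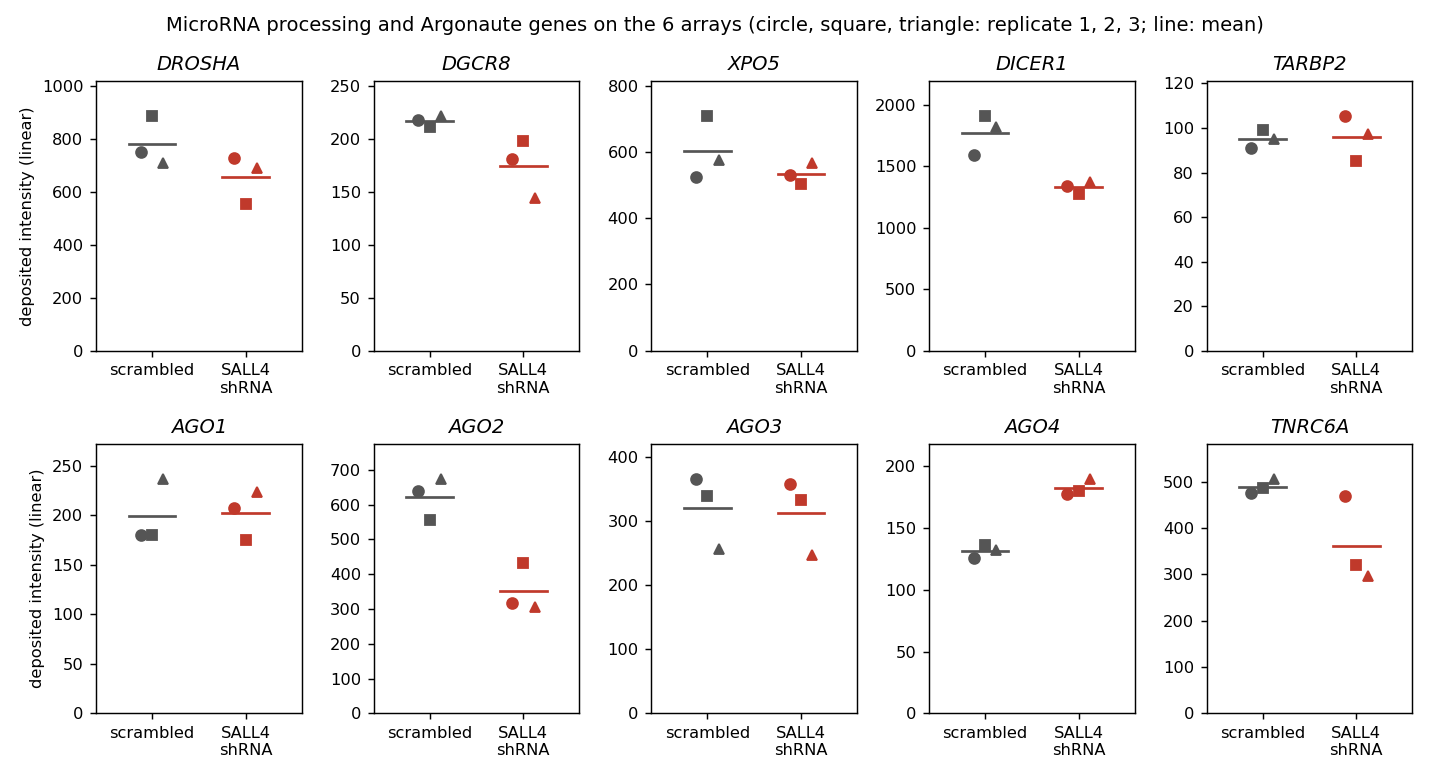
Deposited intensity (linear scale, from 0) of the 10 genes on each array, 3 scrambled (grey) and 3 SALL4 shRNA (red), with the mean as a line and a marker shape per replicate. AGO2, DICER1, DGCR8 and TNRC6A lay lower on every knockdown array than on any scrambled array, AGO4 lay higher, and the groups overlapped for the other 5.

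The Microprocessor genes had small negative differences that did not pass. DROSHA, the nuclease, was at 751, 886 and 708 in the scrambled arrays and at 727, 554 and 689 in the knockdown arrays. The groups overlapped, since the first knockdown array lay above the lowest scrambled array. The log2 change was -0.25 ± 0.19 (SE; limma adjusted p = 0.547), with a 95% interval from -0.68 to 0.17, and it was -0.14 without knockdown replicate 2. DGCR8, the subunit that recognises the hairpin, was at 218, 211 and 221 in the scrambled arrays and at 181, 198 and 144 in the knockdown arrays. The scrambled arrays lay close together, and each knockdown array lay below all of them. The log2 change was -0.33 ± 0.19 (SE; limma adjusted p = 0.412), with an interval from -0.74 to 0.08, and it was -0.20 without knockdown replicate 3. The coefficient of variation of DGCR8 was 2.37% over the scrambled and 15.8% over the knockdown arrays.

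XPO5, the exporter of precursor hairpins, was at 526, 708 and 576 in the scrambled arrays and at 531, 503 and 567 in the knockdown arrays. All 3 knockdown values lay within or just under the scrambled range, and scrambled replicate 2 was the high one. Its log2 change of -0.17 ± 0.19 (SE) had an interval from -0.58 to 0.25 and a limma adjusted p of 0.71. It was -0.05 without scrambled replicate 2 and -0.26 without scrambled replicate 1.

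DICER1, the cytoplasmic nuclease, was at 1589, 1908 and 1822 in the scrambled arrays and at 1337, 1272 and 1375 in the knockdown arrays. Every knockdown array lay below the lowest scrambled array. The knockdown mean was 1328 ± 52.2 against 1773 ± 165 (SD, n = 3 each). The log2 change was -0.41 ± 0.18 (SE), or 75.1% of the scrambled level, with an interval from -0.80 to -0.02. It did not pass after adjustment over all genes (limma adjusted p = 0.268). DICER1-AS1, the antisense transcript gene that overlaps the start of DICER1, has its own probe set, with means of 45.7 ± 9.68 and 38.6 ± 3.62 (SD, n = 3 each). Its log2 change was -0.23 ± 0.20 (SE; limma adjusted p = 0.613). Whether the probes tell the 2 strands apart was not tested.

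TARBP2, the double-stranded RNA-binding partner of DICER1, was at 90.9, 99 and 95 in the scrambled arrays and at 105, 85 and 97.1 in the knockdown arrays. The knockdown arrays lay on both sides of the scrambled ones. The log2 difference was 0.01 ± 0.18 (SE; limma adjusted p = 0.989). Its interval ran from -0.39 to 0.40, so changes within that range were not excluded for this gene.

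**Figure D2:**
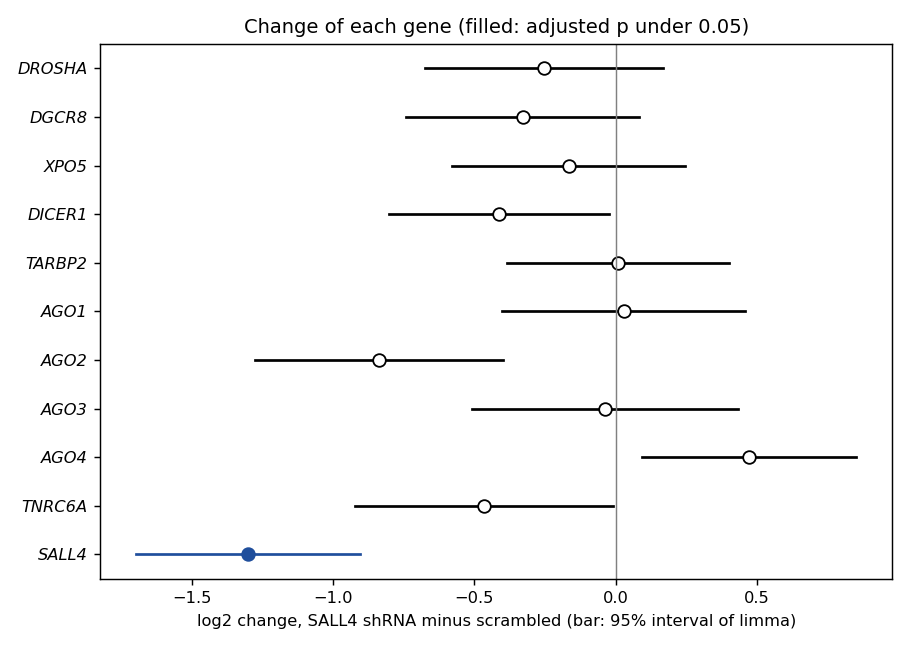
Log2 change (SALL4 shRNA minus scrambled) of the 10 genes and of SALL4, with the 95% interval of limma as a bar, over 3 arrays per group. Only SALL4 is drawn filled (adjusted p under 0.05); the intervals of AGO2, DICER1 and TNRC6A lie below 0, that of AGO4 above 0, and those of the other 6 genes include 0.

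The 4 Argonaute genes took different values, with AGO2 lower and AGO4 higher in all knockdown arrays. AGO2 was at 638, 555 and 674 in the scrambled arrays and at 316, 433 and 305 in the knockdown arrays. The lowest scrambled array lay above the highest knockdown array, which was replicate 2. The means were 622 ± 61.1 and 351 ± 71 (SD, n = 3 each), so that 55.9% of the scrambled level remained. The log2 change was -0.84 ± 0.20 (SE), with an interval from -1.28 to -0.40, an unadjusted limma p of 0.00132 and an adjusted p of 0.0599. The gene ranked 300 of 13711 by p, and its change was larger in size than that of 96.6% of the genes in the fit. AGO2 passed in 3 of 17 other settings: with limma's trend and robust options (adjusted p = 0.0213), with 16 added to each intensity before the logarithm (0.0326) and with a stricter filter on dim genes (0.042). Over all 17 the change lay between -0.998 and -0.745 and the adjusted p between 0.0213 and 0.16.

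AGO4 was at 126, 136 and 132 in the scrambled arrays and at 178, 180 and 190 in the knockdown arrays. Both groups were tight and did not overlap. The means were 131 ± 5.2 and 182 ± 6.38 (SD, n = 3 each), 1.39-fold apart. The log2 change was 0.47 ± 0.17 (SE), with an interval from 0.09 to 0.85, and it did not pass after adjustment (limma adjusted p = 0.193). Limma moved the spread of this gene toward that of all genes, and in the fit without a filter, where it did so less, the adjusted p was 0.103.

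AGO1, the immediate neighbour of AGO4 on the chromosome, was at 180, 180 and 237 in the scrambled arrays and at 208, 175 and 223 in the knockdown arrays. The groups overlapped throughout, with a log2 difference of 0.03 ± 0.20 (SE; limma adjusted p = 0.961; interval -0.40 to 0.46). AGO3, the next gene, was at 366, 339 and 257 in the scrambled arrays and at 358, 332 and 247 in the knockdown arrays. Here the array of replicate 3 was the lowest of each group, and the groups differed by -0.04 ± 0.22 on the log2 scale (SE; limma adjusted p = 0.955; interval -0.51 to 0.43). For AGO1 the array of replicate 3 was instead the highest of each group. The sign of the small AGO1 and AGO3 differences changed when single arrays were left out, and that of AGO3 also with each array centred on its median (0.01).

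The change of AGO2 was set against that of each paralog within the same array. The log2 difference of AGO2 and AGO1 moved by -0.87 between scrambled and knockdown arrays, that of AGO2 and AGO3 by -0.80 and that of AGO2 and AGO4 by -1.31. In each of these 3 pairs the scrambled and knockdown arrays did not overlap. AGO2 was singled out with earlier results of these arrays known, so this separation only describes the values. How often other pairs of genes separate in this way was not computed. The exact two-sided permutation p over arrays was 0.1 for each pair, also after Benjamini-Hochberg adjustment over the 3, which is the smallest that 3 against 3 arrays allow. This test could not pass the threshold whatever the values, and no other test of the difference was run. These are changes of ratio and say nothing of which Argonaute is the most abundant.

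**Figure D3:**
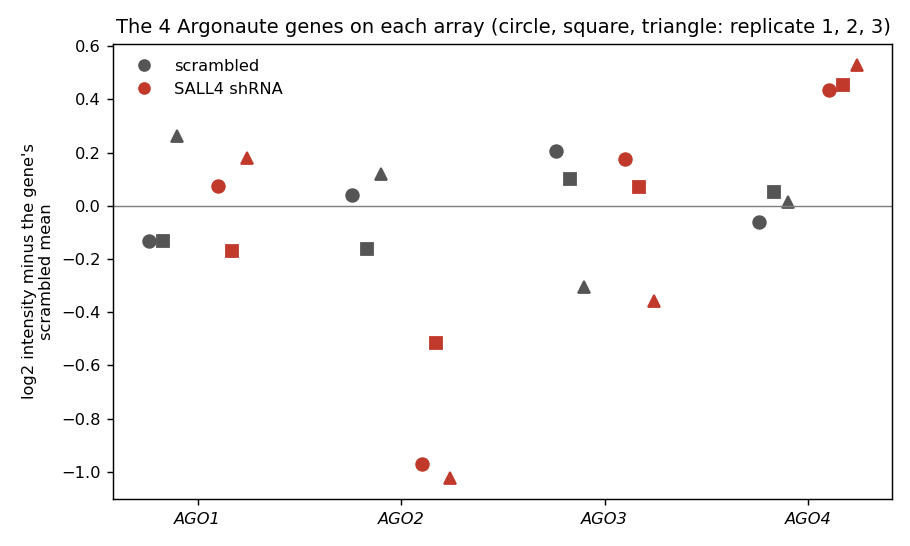
Log2 intensity of AGO1, AGO2, AGO3 and AGO4 on each array after subtraction of the gene's mean over the 3 scrambled arrays (scrambled grey, SALL4 shRNA red, a marker shape per replicate). The 3 knockdown arrays of AGO2 lie below and those of AGO4 above all scrambled arrays, with mean shifts of -0.84 and 0.47, while those of AGO1 and AGO3 lie among the scrambled arrays.

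TNRC6A, the GW182 scaffold that Argonaute proteins bind, was at 475, 487 and 506 in the scrambled arrays and at 468, 319 and 296 in the knockdown arrays. Knockdown replicate 1 lay just below the scrambled arrays, and the other 2 lay far below. The means were 489 ± 15.7 and 361 ± 93.4 (SD, n = 3 each), with a log2 change of -0.47 ± 0.21 (SE; limma adjusted p = 0.285; interval -0.92 to -0.01). Without knockdown replicate 1 the change was -0.67 with an adjusted p of 0.137, and without knockdown replicate 3 it was -0.34.

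Knockdown arrays held the lowest value for 9 of the 10 genes. Replicate 2 of the knockdown was the lowest of the 6 arrays for 5 genes (DROSHA, XPO5, DICER1, TARBP2 and AGO1) and replicate 3 for 4 (DGCR8, AGO2, AGO3 and TNRC6A). The remaining gene, AGO4, was lowest in scrambled replicate 1. Some of these minima lay close to the lowest scrambled array: 175 against 180 for AGO1, 247 against 257 for AGO3 and 85 against 90.9 for TARBP2. How often a knockdown array was the lowest over all genes was not computed. Replicate 2 is also the array with the lowest median intensity; without it and scrambled replicate 3 together, the changes were -0.94 for AGO2, 0.49 for AGO4, -0.36 for DICER1 and -0.37 for TNRC6A, with limma adjusted p values from 0.116 to 0.557.

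The array patterns most like that of AGO2 over the 6 arrays on the log2 scale were those of PAXIP1 (Pearson r = 0.998), EXOSC10 (0.995), PPHLN1 (0.993), PKMYT1 (0.992) and MRPS15 (0.99). PKMYT1, which encodes an inhibitory kinase of CDK1, was at 85.5 ± 5.67 and 47.7 ± 6.5 (SD, n = 3 each) and fell by 0.85 on the log2 scale (limma adjusted p = 0.046), a call lost in 12 of 17 other settings, among them each of the 6 fits without 1 array (0.067 to 0.132), quantile normalization (0.059) and the fit with no filter (0.108). EXOSC10, a nuclease of the RNA exosome, was at -0.45 ± 0.18 (SE) and did not pass. These correlations rest on 6 arrays that share the group difference and were picked from 13711 genes.

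Beyond the 10 genes, 77 of 81 listed pathway genes were measured and 72 were in the fit. Of these 2 fell and 1 rose, against 1.06% and 0.547% of all genes in those directions. Their median change was 0.04, with 39 positive and 33 negative changes. At an unadjusted p under 0.05 there were 15 of 72, 20.8%, against 16.9% of all genes.

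Genes that act with the Microprocessor and in transport did not pass. Of 9 Microprocessor cofactors in the fit 5 had a positive and 4 a negative change, with a median of 0.04. At an unadjusted p under 0.05 there was 1, 11.1%, against 16.9% of all genes. METTL3, the RNA methyltransferase that marks primary microRNA transcripts, had means of 418 ± 49.6 in scrambled and 307 ± 37 in knockdown arrays (SD, n = 3 each). The difference was -0.45 ± 0.19 on the log2 scale (SE; limma adjusted p = 0.263). ERH, a small partner of DGCR8, was at -0.41 ± 0.22. Of the 3 transport genes, all with positive differences and 0 at an unadjusted p under 0.05 in limma, the exportin gene XPO1 was at 0.38 ± 0.20 and RAN, the GTPase that exportins need, at 0.15 ± 0.20.

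Of 11 partners of Dicer and of Argonaute loading, 0 passed in limma and 1 had an unadjusted p under 0.05, 9.09%, against 16.9% of all genes. The 1 gene was PRKRA, which encodes PACT, the other double-stranded RNA-binding partner of Dicer beside TARBP2. PRKRA was at 259, 308 and 233 in the scrambled arrays and at 168, 134 and 180 in the knockdown arrays. The groups did not overlap, and the log2 difference was -0.73 ± 0.20 (SE; limma adjusted p = 0.0819). TSN, a subunit of the C3PO nuclease, was at 0.43 ± 0.21. Of the chaperone and co-chaperone genes of the list, whose proteins help to load Argonaute, HSP90AA1 (0.21), HSP90AB1 (0.15) and PTGES3 (0.15) had positive and STIP1 (-0.36), FKBP4 (-0.09) and HSPA8 (-0.08) negative differences; these were named after their values were seen.

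Among 30 GW182 paralogs and silencing effectors, PAN2 fell, EDC3 rose and 28 did not pass. At an unadjusted p under 0.05 there were 3 higher and 2 lower, 16.7% of the list, against 16.9% of all genes. PAN2, the catalytic subunit of the PAN2-PAN3 deadenylase, was at 145, 137 and 132 in the scrambled arrays and at 64.9, 79.3 and 75.2 in the knockdown arrays. Each knockdown array lay far below the scrambled ones, and the log2 change was -0.92 ± 0.18 (SE; limma adjusted p = 0.0299). EDC3, an activator of decapping, was at 89.6, 93.7 and 117 in the scrambled arrays and at 207, 185 and 171 in the knockdown arrays. It was higher on each knockdown array, with a log2 change of 0.91 ± 0.19 (SE; limma adjusted p = 0.0365). Both calls were lost in each of the 6 fits without 1 array, with adjusted p values from 0.0568 to 0.129. PAN3, the partner of PAN2, was at 0.32 and the TNRC6A paralogs TNRC6B and TNRC6C were at 0.05 and 0.37, with limma adjusted p values of 0.477, 0.927 and 0.452; these 3 were named after their values were seen.

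Of 8 genes that control or tail precursors in the fit, 0 passed in limma, with 1 at an unadjusted p under 0.05, 12.5%, against 16.9% of all genes. PARN, a poly(A)-specific ribonuclease, was at 547, 535 and 555 in the scrambled arrays and at 412, 351 and 431 in the knockdown arrays. The groups did not overlap, with a log2 difference of -0.46 ± 0.18 (SE; limma adjusted p = 0.221). LIN28B, which blocks maturation of let-7, was at 433, 337 and 359 in the scrambled and at 563, 390 and 552 in the knockdown arrays. These groups overlapped, with a difference of 0.40 ± 0.21. Its paralog LIN28A lay below the filter, between 24.7 and 40.2.

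Of 11 genes that modify Argonaute or act in small RNA turnover, P4HA1 fell and 10 did not pass. P4HA1, a subunit of the collagen prolyl hydroxylase that is also known to hydroxylate AGO2, was at 434, 509 and 434 in the scrambled arrays and at 241, 233 and 135 in the knockdown arrays. The groups were well separated, with a log2 change of -1.22 ± 0.24 (SE; limma adjusted p = 0.0291), and an earlier result for this gene on these arrays was known when it was listed. The call was lost in the 5 fits without scrambled replicate 1, 2 or 3 or knockdown replicate 2 or 3 (adjusted p 0.0587 to 0.107) and kept without knockdown replicate 1 (0.0416). P4HB, the other subunit of the enzyme, was at 806, 755 and 798 against 498, 658 and 473, and XRN2, a nuclear exonuclease, was at 935, 930 and 761 against 539, 507 and 554. Neither passed (-0.55, limma adjusted p = 0.172, and -0.71, 0.0718), although their groups did not overlap; both were named after their values were seen. XRN2 passed in 2 other settings, with limma's trend and robust options and with 16 added to each intensity. The median of the 11 was -0.42, with 9 negative and 2 positive changes. At an unadjusted p under 0.05 there were 6 lower, 54.5%, against 8.92% of all genes in that direction, and 1 higher, CSNK1A1 at 0.53. These include P4HA1, so the share is not independent of the earlier result.

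The calls of PAN2, EDC3 and P4HA1 were also lost in the fit with no filter (limma adjusted p from 0.0946 to 0.144), with all probe sets as features (0.0905 to 0.107) and without scrambled replicate 3 and knockdown replicate 2 together (0.0933 to 0.0996).

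The PIWI genes, the germline branch of the Argonaute family, lay near the floor. PIWIL1, PIWIL2, PIWIL3 and PIWIL4 ranged from 10 to 23.2 over the 6 arrays and none entered the fit. PIWIL2 was at the floor of 10 on 5 of the 6.

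**Figure D4:**
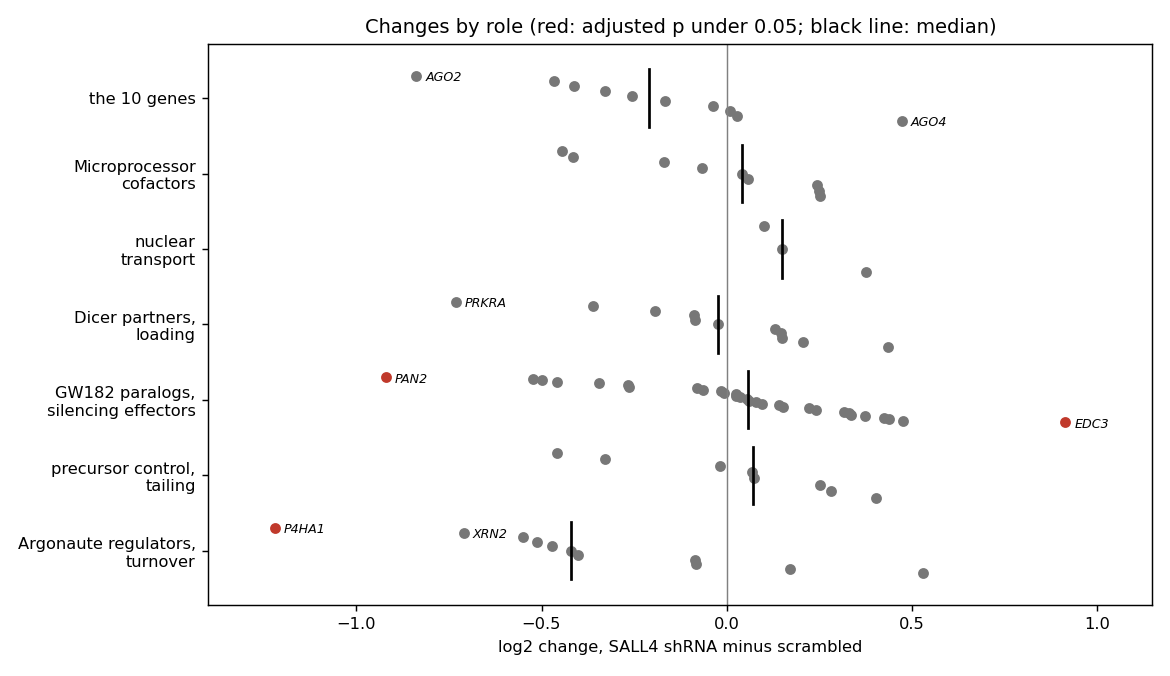
Log2 change (SALL4 shRNA minus scrambled) of the 10 genes and of the 72 further pathway genes in the fit, grouped by role, each point 1 gene over 3 arrays per group, with the median of each group as a black line and genes with an adjusted p under 0.05 in red. P4HA1 and PAN2 lie lower and EDC3 higher in red; the median is -0.42 for the Argonaute regulators and between -0.21 and 0.15 for the other groups.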

How the data were processed

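RNA of 6 SNU-398 cultures was labelled with biotin and hybridized to Affymetrix arrays, per the labels. The authors deposited 1 intensity per probe set and array for 32319 probe sets; The submitters' processing notes name RMA, a method of background correction, normalization and probe summary, with no version or later step given in the sources. The deposited intensity values are linear, with a floor of 10. Log2 was taken here. Names came from the platform annotation, with a single symbol for 19158 probe sets, several for 1388 and none for 11773. Of those with a single symbol, 19128 were matched to RefSeq by Entrez identifier and given the RefSeq symbol. The brightest probe set stood for each of the 18404 genes. The 13711 genes whose mean log2 intensity reached 5 in at least 1 group entered a moderated linear model (limma 3.58.1, R 4.3.3; lmFit, eBayes; two-sided; Benjamini-Hochberg; threshold 0.05). All 6 arrays entered, and no per-sample column was left unused (0). Tested on simulated data, the fit of this comparison, run on 13449 genes, found 55% of log2 shifts of size 1 and 93% of those of size 2, and 9 of its 157 calls were false. The shifts were placed only in genes well above the filter on dim genes, so recovery in dimmer genes was not measured. The simulated spread was independent between arrays, without arrays that stand apart.

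The members, the pathway lists and the filtered fit were chosen with earlier results of these data known. Named were the 10 genes, SALL4 and the 5 genes most correlated with AGO2. Each pathway gene that passed was also named, or up to 2 with the lowest p in a list where none passed. Other pathway genes given with values are marked, except CSNK1A1, LIN28A and the PIWI genes. DICER1-AS1 and the cell type markers were likewise named outside this rule. The pathway genes SRRT, TSNAX and AHSA1 had no probe set with a single gene name here, and 1 listed gene is not reported here. Coordinates are given for RefSeq sequences only. Alternatives were other filters, probe set rules, normalizations, an offset, limma's trend and robust options, a replicate block and leaving out arrays. Where nothing says that replicates were separate treatments, p values measure the spread between these samples. Precision is limited by the number of arrays.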

Additional observations from a re-analysis of the deposited data

How the results depend on the processing

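Over 17 other settings, DROSHA, DGCR8, XPO5, DICER1, AGO4 and TNRC6A kept their direction and did not pass, and AGO2 kept its direction. The count of the 10 genes called was 0, and 1 (AGO2) with the stricter filter, with trend and robust options and with 16 added; it was 0 in all fits without 1 array. The count of pathway genes called was 3, and 0 without a filter, with all probe sets as features, with the replicate block and without scrambled replicate 3 and knockdown replicate 2 together, and from 0 to 1 without 1 array; it was 4, with XRN2, with trend and robust options and with 16 added. SALL4 was at -1.30 without a filter (adjusted p = 0.0946) and with all probe sets (0.0535), and at -1.20 without those 2 arrays (0.0724). Without 1 array, TARBP2 lay between -0.062 and 0.092 (negative without scrambled replicate 1, knockdown replicate 1 or knockdown replicate 3), AGO1 between -0.047 and 0.16 (negative without scrambled replicate 1 or 2 or knockdown replicate 3) and AGO3 between -0.19 and 0.12 (positive without the same 3 arrays as AGO1), and AGO3 was at 0.0084 with median centring. The cause was not tested. Over all features limma called 220 genes, and 0 without a filter (2864 at an unadjusted p under 0.05; lowest adjusted p 0.0805), 363 with the stricter filter, 10 with all probe sets, 500 with trend and robust options, 445 with 16 added, 41 with the replicate block, 39 to 103 without 1 array and 15 without both arrays. Median centring moved the share of negative changes from 48% to 41.9%. Deviations of same-numbered arrays correlated at 0.0029, -0.08 and -0.04, and those of differently numbered arrays at values from -0.07 to 0.09. These values do not settle whether equal replicate numbers mark a pair. The replicate block gave AGO2 a limma adjusted p of 0.124. Differences of AGO2 to its paralogs kept their direction in each alternative run.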
